A study of Mus musculus with 25 samples.

Results

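Pdx1, Nkx6-1, Nkx2-2 and Mnx1 are 4 homeobox transcription factors of the pancreatic beta cell, described here across a glucagon-secreting and an insulin-secreting mouse islet line. The genes were taken by symbol from the expression table, which held 1 entry for each among 24439 genes, and their open chromatin by nearest-gene annotation, which gave 28 of 65053 consensus ATAC-seq peaks. Nkx6-1 had 18 of these peaks, Mnx1 5, Pdx1 4 and Nkx2-2 1. αTC1 (alpha TC1 clone 6) and βTC6 (beta-TC-6) are tumour-derived lines that were cultured in different media and received no other treatment. Each is a single established line, αTC1 a clone, so every difference below is between those lines. ATAC-seq, which reads out open chromatin by transposase insertion, covered 5 libraries of each pure line and 9 mixtures of counted cells, from 10% to 90% αTC1 in steps of 10%. RNA-seq covered 3 libraries of each pure line.

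Homeobox factors bind DNA through a homeodomain that recognises short AT-rich sequences. Pdx1 is required for the pancreas to form and later activates insulin and other beta cell genes. Nkx6-1 maintains beta cell identity and represses genes of other islet cells, Nkx2-2 acts in several endocrine lineages together with Groucho/Tle corepressors, and Mnx1 is needed for beta cell differentiation.

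The ATAC-seq libraries held 4397851 to 10374903 reads in consensus peaks and the RNA-seq libraries 21954031 to 26033482 estimated counts. Nothing in the labels says whether replicates were separate cultures, so p-values measure the spread between these libraries, which may be technical. All pairs of replicates differed by more than counting noise, measured as chi-square per degree of freedom. In αTC1 ATAC-seq it was 2.05 to 2.16 among replicates 1 to 3 and 10.0 to 11.3 between these and replicates 4 and 5. In βTC6 the same ranges were 2.26 to 2.55 and 4.47 to 8.28. Replicates 4 and 5 differed by 4.72 in αTC1 and 8.52 in βTC6. In RNA-seq, αTC1 replicates 1 and 2 differed by 2.06, but by 27.8 and 29.3 from replicate 3, and βTC6 pairs by 17.3 to 38.4. ATAC-seq replicates 1 to 3 and replicates 4 and 5 of both lines had their mitochondrial share of reads calculated differently by the study, and the mixtures went with the latter. The lines matched their labels: all 6 beta cell markers were higher in βTC6, and 5 of 6 alpha cell markers were higher in αTC1, the exception being Ttr. βTC6 also contained Gcg at 229 FPKM (RNA fragments scaled for transcript length and library depth), Sst at 256 FPKM and Ppy at 3.70 to 50.8 FPKM, and their part in the results below was not tested. Summed markers of acinar cells reached at most 3.73 FPKM, of duct 4.42, of fibroblasts 2.33, of endothelium 0.29 and of leukocytes 2.25 in any library. The first 3 sums were higher in αTC1 and came mainly from a single called gene each, Cela1 (3.65 FPKM in αTC1, 0.41 in βTC6), Sox9 (4.24, 0) and Col1a2 (1.58, 0.13), whose part in the results was not tested. Among the markers Ptf1a and Col3a1 were at 0 in all 6 libraries.

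The sequences shown are the 200 bases before the annotated Pdx1 start and the central 200 bases of the open regions on which the accessibility results turn. They were read from the forward strand of NCBIM37, which is mm9. The capitals mark matches, on either strand, to 5 short motifs: the homeodomain cores TAATTA and TAATGA, the Nkx2-type site TNAAGTG, the forkhead site TGTTTAC and the E-box CAGNTG.
Pdx1, bases before the start (chr5:148081335-148081534): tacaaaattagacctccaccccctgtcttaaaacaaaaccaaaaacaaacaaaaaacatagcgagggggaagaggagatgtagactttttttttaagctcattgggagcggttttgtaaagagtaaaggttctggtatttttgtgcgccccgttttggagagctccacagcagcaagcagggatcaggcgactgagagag
Pdx1, centre of the 1.8 kb upstream peak (chr5:148079761-148079960): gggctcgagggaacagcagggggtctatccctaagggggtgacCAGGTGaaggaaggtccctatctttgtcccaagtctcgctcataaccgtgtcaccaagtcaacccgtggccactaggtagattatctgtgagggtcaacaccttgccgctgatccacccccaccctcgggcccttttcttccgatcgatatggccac
Nkx6-1, centre of the 19.2 kb downstream peak (chr5:102074435-102074634): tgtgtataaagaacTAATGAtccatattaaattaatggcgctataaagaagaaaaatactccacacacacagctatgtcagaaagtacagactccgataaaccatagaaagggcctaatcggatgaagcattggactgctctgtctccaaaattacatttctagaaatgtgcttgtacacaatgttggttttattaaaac
Nkx6-1, centre of the 280.2 kb downstream peak (chr5:101813383-101813582): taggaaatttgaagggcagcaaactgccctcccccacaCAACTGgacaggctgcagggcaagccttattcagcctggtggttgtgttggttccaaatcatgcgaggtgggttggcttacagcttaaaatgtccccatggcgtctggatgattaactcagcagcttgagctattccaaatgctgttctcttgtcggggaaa
Mnx1, centre of the 28.5 kb upstream peak (chr5:29833365-29833564): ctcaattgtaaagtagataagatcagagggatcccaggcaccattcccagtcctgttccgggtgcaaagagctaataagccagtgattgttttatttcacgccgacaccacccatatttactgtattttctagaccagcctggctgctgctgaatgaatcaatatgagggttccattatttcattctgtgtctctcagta

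Of the 4 factors, 3 were more highly expressed in βTC6 and the fourth, Nkx2-2, did not differ detectably. A gene was called when its FDR was under 5% and its absolute log2 fold change over 2, which 10.2% of the 12195 genes tested met in the βTC6 direction and 4.08% in the αTC1 direction. Pdx1 (ENSMUSG00000029644, chr5:148081535-148089584) had 0 counts in each αTC1 library. In βTC6 its levels were 104, 120 and 110 FPKM, a mean of 111 ± 8.07 (SD, n = 3). A count of 0 allows up to 3 counts per library, or 0.135 CPM (counts scaled to library size), against which βTC6 was at least 3723-fold higher (adjusted p = 1.02e-08, edgeR). In bulk RNA, fewer expressing cells and less RNA per cell cannot be told apart.

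Nkx6-1 (ENSMUSG00000035187, chr5:102087158-102094245, reverse strand) was present in both lines. Its levels were 14.1, 13.3 and 14.1 FPKM in αTC1 and 56.6, 58.6 and 66.7 FPKM in βTC6. The lines did not overlap, and the log2 fold change was 2.19 (SE 0.087, adjusted p = 6.88e-08, edgeR). This value lay close to the fold threshold. The median tested gene of chromosome 5, which carries Pdx1, Nkx6-1 and Mnx1, was itself 0.27 higher in βTC6, and less that median the Nkx6-1 change was 1.92, below the threshold.

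Nkx2-2 (ENSMUSG00000027434, chr2:147003282-147019979, reverse strand) was among the abundant transcripts of both lines. It measured 72.2, 75.6 and 78.0 FPKM in αTC1 and 84.8, 69.6 and 77.6 FPKM in βTC6, and these ranges overlapped. The log2 fold change was 0.06 with a 95% interval from -0.10 to 0.22 (adjusted p = 0.524, edgeR).

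Mnx1 (ENSMUSG00000001566, chr5:29799578-29805059, reverse strand) was nearly silent in αTC1, with 1, 2 and 7 counts in the 3 libraries. In βTC6 it had 582, 635 and 749 counts, or 10.1, 11.0 and 13.5 FPKM. Its log2 fold change was 7.53 (SE 0.34, adjusted p = 1.25e-07, edgeR), an estimate that rests on a total of 10 counts in αTC1 and ranged from 7.16 to 8.59 when single libraries were left out.

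Ordered by FPKM, βTC6 ran from Pdx1 through Nkx2-2 and Nkx6-1 to Mnx1, and no neighbouring pair in that order overlapped between libraries. The αTC1 order was Nkx2-2, then Nkx6-1, without overlap, followed by Mnx1 and Pdx1, whose order is not resolved at counts of 1, 2 and 7 against 0. Relative to all 24439 genes, Nkx2-2 was at or above 95.3% in αTC1 and 95.5% in βTC6, whereas Mnx1 in βTC6 was at or above 72.7%.

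**Figure D1:**
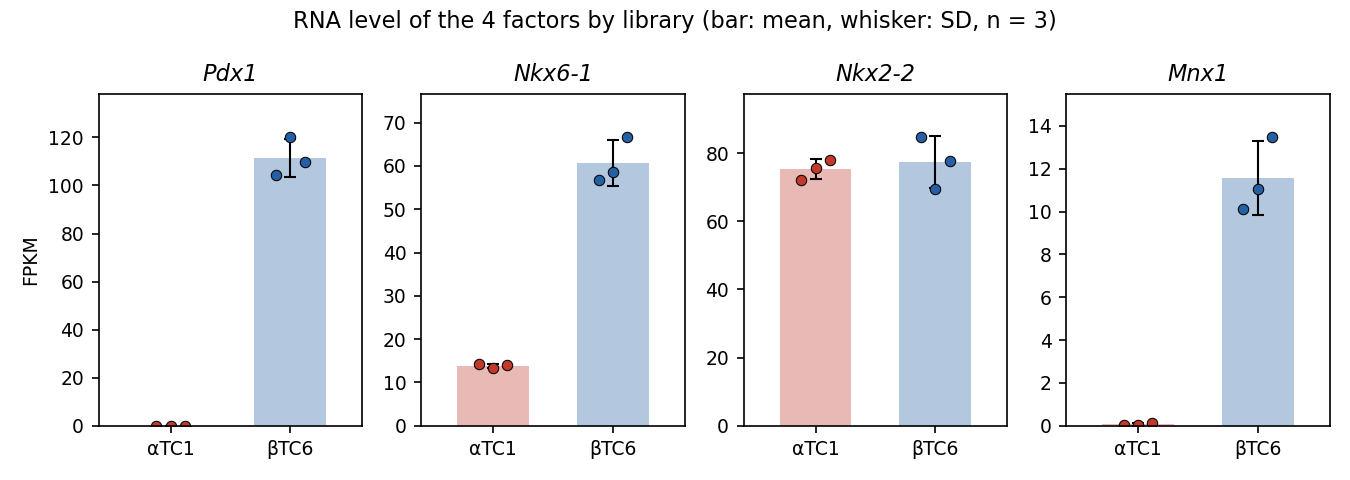
RNA level in FPKM (vertical axes, separate scale per gene) of each factor in 3 αTC1 (red) and 3 βTC6 (blue) libraries. Points are libraries, bars means and whiskers SD. Pdx1 and Mnx1 are at or near 0 in αTC1, Nkx6-1 rises from a mean of 13.8 to 60.7, and the Nkx2-2 libraries overlap.

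Chromatin around the factors differed in both directions. Of the 28 peaks, 6 were called more open in βTC6, against 12.9% of all consensus peaks, and 2 more open in αTC1, against 5.38%. The excess toward βTC6 depended on the scaling: under quantile normalization, and also less the chromosome medians, 3 were called in each direction, and over all peaks quantile normalization gave 5655 and 5126 calls. By edgeR on recovered reads 7 and 3 of the 28 were called, against 21.2% and 8.82% of all peaks, shares close to the members'. By FDR alone, 18 were higher and 7 lower in βTC6, and 78.0% of all peaks passed FDR alone. In 21 of the 28 the libraries of the lines did not overlap, compared with 63.9% of all peaks. Their median log2 fold change was 0.83, beside 0.0011 over all peaks and 0.31 over the peaks of chromosome 5. Within replicates 1 to 3 alone, 6 were called higher in βTC6 and 2 in αTC1, and within replicates 4 and 5 alone 5 and 3. In those sets the log2 fold changes were 4.15 and 4.53 for the Pdx1 start peak, 0.29 and 0.35 for the Nkx6-1 start peak, and 1.80 and 1.33 for the Mnx1 start peak. By position, 20 peaks were intergenic, 3 intronic and 5 exonic. Levels are TMM-normalized reads, and log2 fold changes are on the log2(normalized reads + 1) scale, which understates the change of low peaks.

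**Figure D2:**
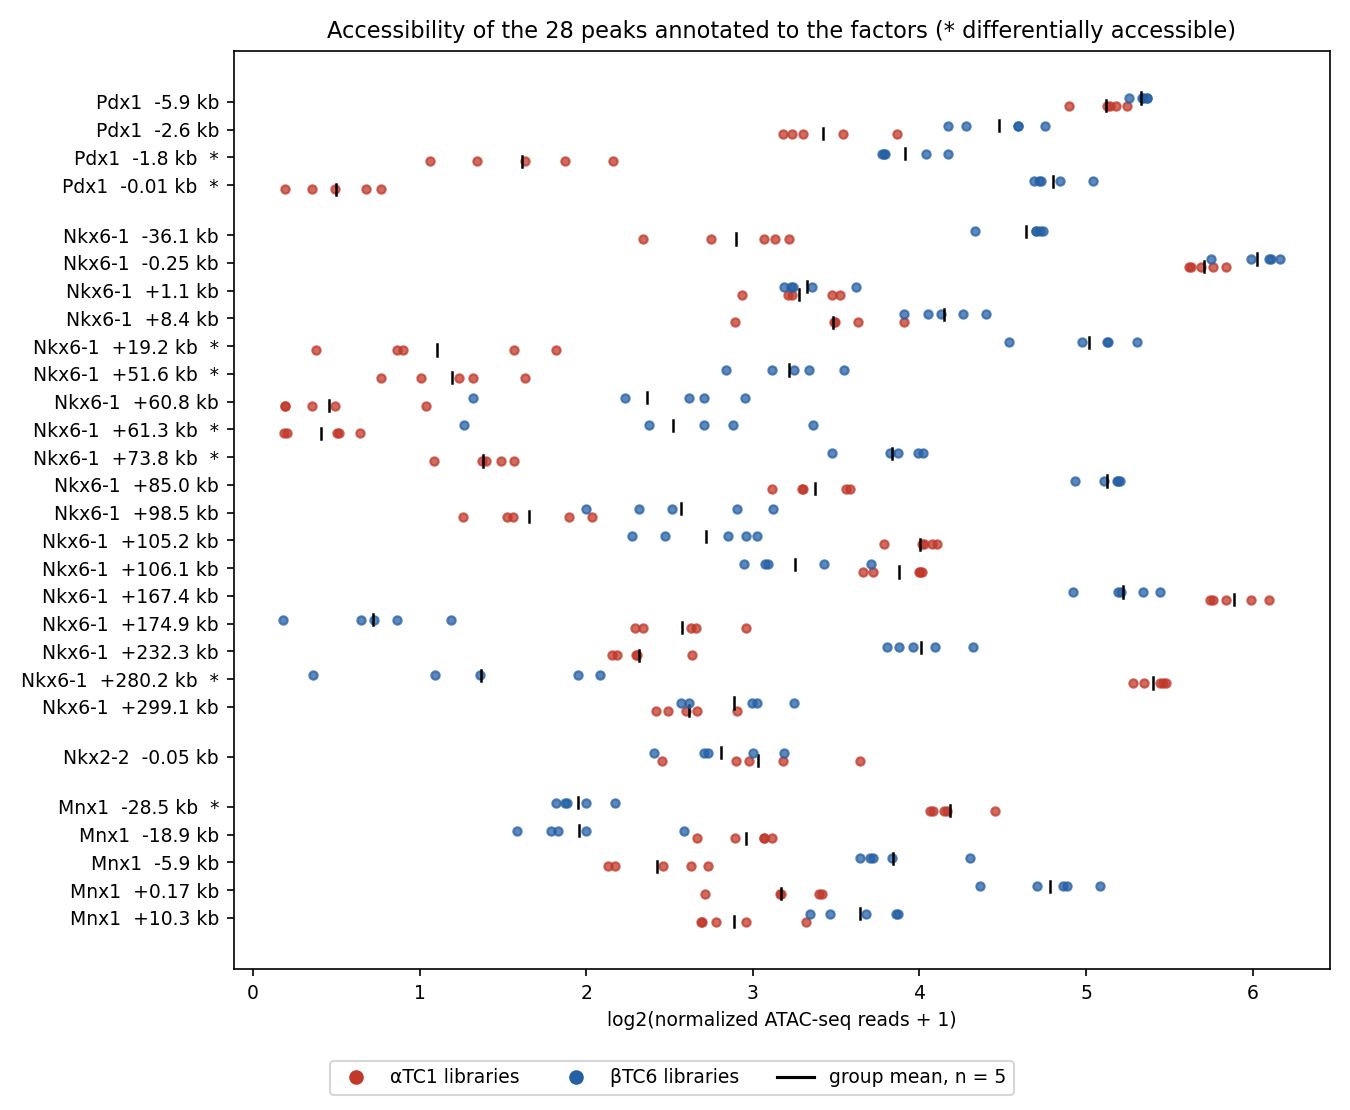
Normalized ATAC-seq reads on a log2(value + 1) axis for the 28 peaks (rows, by gene and by distance from the start in kb, negative upstream) in 5 αTC1 (red) and 5 βTC6 (blue) libraries. Points are libraries, black ticks group means, and asterisks mark the 8 called peaks. The start-site peaks separate the lines for Pdx1 and Mnx1 and overlap between lines for Nkx6-1 and Nkx2-2.

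At Pdx1 the difference was largest at the start and smaller at each of the 3 peaks further upstream. The peak over the start (chr5:148081496-148081903), in the first exon, had 0.28, 0.70, 0.60, 0.41 and 0.14 normalized reads in αTC1, which is 1 to 5 reads. It had 27.7, 24.8, 25.5, 32.0 and 25.3 in βTC6, with a log2 fold change of 4.31 (SE 0.20, adjusted p = 2.90e-13, limma). The peak 1.8 kb upstream (chr5:148079710-148080013) measured 1.54, 2.67, 2.1, 1.09 and 3.47 in αTC1 and 12.8, 12.7, 12.8, 15.4 and 17.0 in βTC6 (change on the log2 scale 2.30, SE 0.22, adjusted p = 9.56e-09, limma). Both were called and neither overlapped between lines.

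At 2.6 kb upstream (chr5:148078996-148079266) the mean was 9.91 ± 2.28 in αTC1 and 21.5 ± 3.70 in βTC6 (SD, n = 5), a log2 fold change of 1.05 that did not reach the fold threshold. The peak at 5.9 kb (chr5:148075470-148076121) was open in both lines, at 33.9 ± 3.04 and 39.3 ± 1.24, the highest mean of the 4 peaks, with a log2 fold change of 0.21 (SE 0.091, adjusted p = 0.039, limma). This last value lost FDR 5% by edgeR (adjusted p = 0.051) and with single libraries left out (0.133 without αTC1 replicate 1). It became -0.094 less the chromosome 5 median and 0.55 under quantile normalization. αTC1, in which no Pdx1 RNA was counted, thus had an open region near the gene and few reads at its start. The 3 upstream peaks lie in an intron of the overlapping transcript 2210019I11Rik in GENCODE.

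Other open regions near Pdx1 were annotated to its neighbours. Within 100 kb of the start there were 12 peaks, 8 of them assigned elsewhere, and 6 of the 12 were called higher in βTC6 and 0 higher in αTC1. Over all consensus peaks 12.9% and 5.38% were called, and the median log2 fold change of chromosome 5 peaks was 0.31. One peak (chr5:148088937-148089212) lies in the untranslated part of the last Pdx1 exon and is assigned to Mir7k. It averaged 0.43 ± 0.40 in αTC1 and 5.53 ± 0.64 in βTC6 (change on the log2 scale 2.23, SE 0.20). The peak near the start of Cdx2, a homeobox gene of the intestine, rose from 1.64 ± 0.23 to 22.3 ± 3.44 (log2 fold change 3.13, SE 0.18, adjusted p = 5.91e-12, limma). Under quantile normalization the start peaks of Pdx1 and Cdx2 stayed over the fold threshold (4.23 and 2.90). The Pdx1 peak 1.8 kb upstream and the Mir7k peak fell below it (1.98 and 1.88), as did the called peaks assigned to Gsx1 and Urad (1.91 and 1.79).

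The Nkx6-1 start region was open in both lines, whereas distal regions differed strongly. The start peak (chr5:102093203-102094761) had 50.6, 48.6, 56.4, 53.4 and 48.1 normalized reads in αTC1 and 68.2, 52.9, 70.7, 67.6 and 62.4 in βTC6. The lowest βTC6 library fell inside the αTC1 range, and the log2 fold change was 0.31 (SE 0.092, adjusted p = 0.0043, limma), about the median of chromosome 5. Under quantile normalization it was 0.75 (adjusted p = 1.1e-06). A peak 1.1 kb into the gene measured 8.79 ± 1.56 and 9.09 ± 1.29 (adjusted p = 0.798, limma).

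The largest βTC6 difference near Nkx6-1 lay 19.2 kb downstream of the start, beyond the end of the gene (chr5:102074109-102074961). Its levels were 1.96, 2.53, 0.30, 0.82 and 0.87 in αTC1 and 33.9, 38.6, 30.4, 34.1 and 22.3 in βTC6, giving a log2 fold change of 3.91 (SE 0.24, adjusted p = 2.17e-11, limma). Called peaks at 51.6, 61.3 and 73.8 kb downstream had log2 fold changes of 2.02, 2.11 and 2.45. The peak at 61.3 kb varied among βTC6 libraries, with 5.54, 6.36, 4.19, 9.27 and 1.41. Its neighbour at 60.8 kb had its lowest level in the same library, at 1.5 against 3.69 to 6.76 in the others. At 85.0 kb downstream and 36.1 kb upstream the log2 fold changes were 1.75 and 1.74, just under the threshold.

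Beyond 100 kb the direction was mixed. The region 280.2 kb downstream (chr5:101813074-101813892) was open in αTC1, at 43.1, 37.9, 43.6, 39.7 and 42.5, and nearly closed in βTC6, at 1.14, 2.87, 3.24, 1.57 and 0.28. Its log2 fold change of -4.03 (SE 0.24, adjusted p = 1.44e-11, limma) was the lowest of the 28 peaks. Peaks at 105.2, 106.1, 167.4 and 174.9 kb were also lower in βTC6, by log2 fold changes of -1.28, -0.63, -0.67 and -1.85, all with FDR under 5%. One at 232.3 kb was higher in βTC6 (1.70), and the most distant, at 299.1 kb, measured 5.17 ± 0.83 and 6.53 ± 1.5 (adjusted p = 0.217, limma). These regions carry the name Nkx6-1 only because its start is the nearest annotated, and contact with the gene was not tested.

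**Figure D3:**
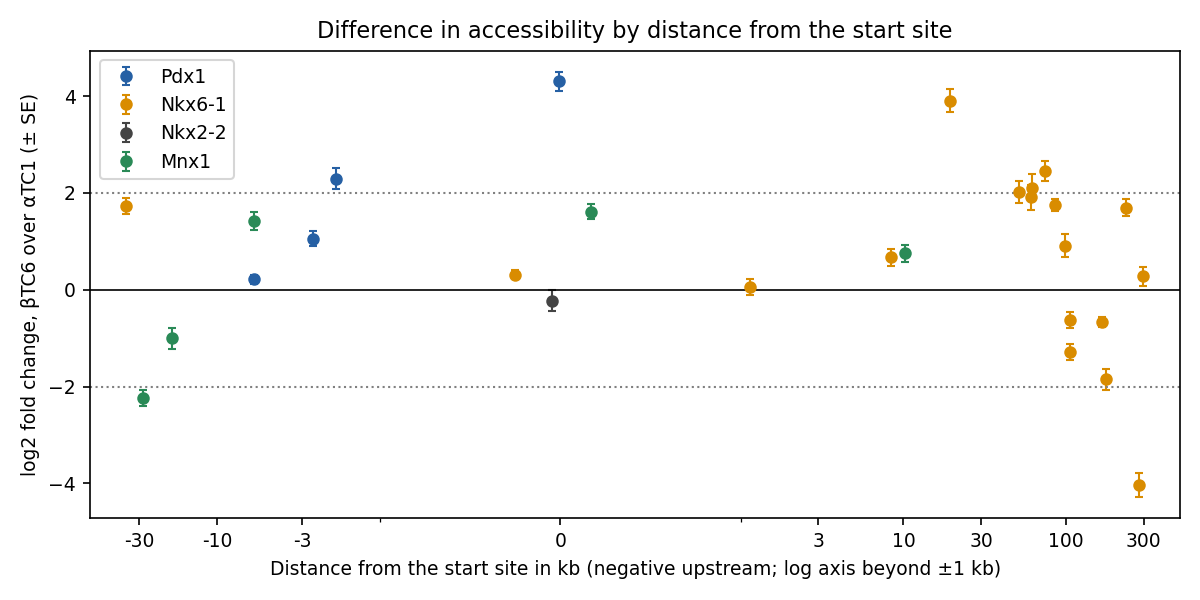
Log2 fold change of βTC6 over αTC1 (vertical axis, ± SE) against distance from the start in kb (horizontal axis, logarithmic beyond 1 kb on either side) for the 28 peaks, coloured by gene. Dotted lines mark the threshold of 2 in each direction. Nkx6-1 lies near 0 at its start and reaches 3.91 at 19.2 kb and -4.03 at 280.2 kb, whereas Pdx1 is highest at its start.

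Nkx2-2 had no called peak in either direction. Its single peak (chr2:147012055-147012316), at the start of the main transcript, had 6.86, 11.5, 6.46, 8.05 and 4.48 normalized reads in αTC1 and 8.09, 4.31, 5.54, 6.99 and 5.63 in βTC6. The lines overlapped (log2 fold change -0.22, SE 0.22, adjusted p = 0.365, limma), and in replicates 4 and 5 alone the sign turned, to 0.048, whereas under quantile normalization the value was -0.56 (adjusted p = 0.036). Within 100 kb there were 10 peaks, of which 9 were annotated to 6430503K07Rik or Nkx2-2os, and 0 were called. The strongest, 8.4 kb upstream of that start (chr2:147019560-147021418), covers the outer annotated start of the gene, at 147019979, and averaged 82.8 ± 12.5 in αTC1 and 59.3 ± 11.6 in βTC6 (change on the log2 scale -0.48, adjusted p = 0.0023, limma). That difference was lost under quantile normalization (-0.017, adjusted p = 0.918, limma). In replicates 4 and 5 alone it was of similar size, at -0.46, but did not pass FDR 5% (adjusted p = 0.087, limma). A weak peak at -44.9 kb, upstream of that start, was nearest to the threshold, at 0.93 ± 0.53 and 6.64 ± 2.34 (log2 fold change 1.96). It passed the threshold by edgeR on recovered reads (2.79) and in replicates 1 to 3 alone (2.18). It stayed under the threshold in replicates 4 and 5 alone (1.64), under quantile normalization (1.51) and with a pseudocount of 5 (0.95).

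Mnx1 had peaks of both directions. Its start peak (chr5:29804177-29805498) had 9.52, 8.01, 5.56, 9.69 and 7.94 in αTC1 and 25.1, 28.5, 33.0, 28.1 and 19.6 in βTC6. The lines did not overlap, but the log2 fold change of 1.61 (SE 0.16, adjusted p = 1.36e-08, limma) stayed under the fold threshold. The αTC1 libraries held 37 to 71 reads at the Mnx1 start, where the Pdx1 start held at most 5. The Mnx1 peak spans 1322 bases and the Pdx1 peak 408, and these reads are not scaled for width. Peaks 5.9 kb upstream and 10.3 kb downstream were also higher in βTC6, by log2 fold changes of 1.42 and 0.75.

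Further upstream of Mnx1 the difference was opposite. The peak at 28.5 kb (chr5:29833013-29833917) measured 15.7, 16.7, 15.9, 16.9 and 20.9 in αTC1 and 2.70, 2.67, 3.51, 3.0 and 2.54 in βTC6 (change on the log2 scale -2.23, SE 0.17, adjusted p = 3.31e-10, limma). The peak at 18.9 kb went the same way, with a log2 fold change of -1.0 and FDR under 5%.

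The mixtures were separate libraries in which the proportion of the lines was set by counting cells. Tested were the 4 start-site peaks and the called peaks, 11 in all, by a 2-sided exact permutation test of Pearson's r between normalized reads and the percentage of βTC6 cells, adjusted over all 65053 peaks. Of the 11, 9 passed, including 7 of the 8 called. Among all consensus peaks 30.1% passed with r above 0 and 21.8% with r below 0, and among all called peaks 95.8% of those higher in βTC6 and 94.3% of those higher in αTC1, so a pass is usual for a called peak. With the mixtures at 10% and 90% left out, 2 of 11 passed, from fewer libraries.

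From 10% to 90% βTC6, the Pdx1 start peak measured 2.44, 3.99, 4.77, 9.32, 14.6, 9.21, 14.8, 16.3 and 20.2 normalized reads (r = 0.944, exact p = 0.00038, adjusted 0.0024, rho = 0.950, exact p = 0.00035). Already at 10% βTC6 this was above every pure αTC1 library. Without the end mixtures r was 0.886 (exact p = 0.012). The Nkx6-1 region at 19.2 kb rose from 3.05, 2.60, 3.97, 7.29 and 9.64 at 10% to 50% βTC6 to 12.2, 16.3, 14.2 and 20.6 at 60% to 90% (r = 0.970, exact p = 5.5e-05, adjusted 0.00085, rho = 0.967, exact p = 0.00017). Without the end mixtures r was 0.966 (exact p = 0.0016). In the opposite direction, the αTC1 region at 280.2 kb fell from 47.3 to 8.07 between 10% and 90% βTC6 (r = -0.931, exact p = 0.00021, adjusted 0.0017, rho = -0.883, exact p = 0.0031), with r = -0.851 (exact p = 0.012) without the end mixtures.

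The Mnx1 start peak rose less evenly, from 4.06 to 16.3 with a highest value of 23.8 at 80% βTC6 (r = 0.844, exact p = 0.0047, adjusted 0.013, rho = 0.867, exact p = 0.0045; r = 0.864, exact p = 0.013 without the end mixtures). Its 28.5 kb peak declined (r = -0.859, exact p = 0.0037, adjusted 0.011, rho = -0.767, exact p = 0.021; r = -0.851, exact p = 0.020 without them). The Nkx6-1 start peak, which was not called between the lines, passed narrowly (r = 0.731, exact p = 0.022, adjusted 0.043, rho = 0.817, exact p = 0.011), with r = 0.678 and exact p = 0.081 without the end mixtures. The called Pdx1 peak at 1.8 kb and the Nkx6-1 peak at 73.8 kb gave r = 0.919 and r = 0.939 (adjusted exact p = 0.0036 and 0.0014). The Nkx6-1 peak at 51.6 kb gave r = 0.742 (exact p = 0.021, adjusted 0.042, rho = 0.617, exact p = 0.086), with r = 0.746 and exact p = 0.051 without the end mixtures. The Nkx2-2 peak, between 1.91 and 6.77 in the mixtures, gave r = -0.063 (exact p = 0.870, rho = -0.133, exact p = 0.744). The called Nkx6-1 peak at 61.3 kb did not pass (r = 0.716, exact p = 0.029, adjusted 0.055, rho = 0.617, exact p = 0.086).

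Levels in the mixtures were set against the mean of the pure lines weighted by cell percentage. For the Nkx6-1 region at 19.2 kb every one of the 9 mixtures was below that mean, with a median ratio of 0.58. For the 61.3 kb peak also 9 of 9 were below, with a median ratio of 0.13 and mixture levels of 0.16 to 2.29, when 4 of the 5 pure βTC6 libraries lay between 4.19 and 9.27. The Pdx1 start peak was below in 8 of 9 (median ratio 0.78) and the Mnx1 start peak in 7 of 9 (0.65). Peaks that were not called also lay below, the Nkx6-1 start peak in 9 of 9 (0.96) and the Nkx2-2 peak in 8 of 9 (0.77). The αTC1 region at 280.2 kb was below in 1 of 9 (median ratio 1.31). Over all 65053 peaks the median ratio was 0.96. Over all peaks called higher in βTC6 it was 0.92, with 0.59 at the 5th percentile, and over those called higher in αTC1 it was 1.07, with 1.43 at the 95th. The cause of the departures was not tested.

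**Figure D4:**
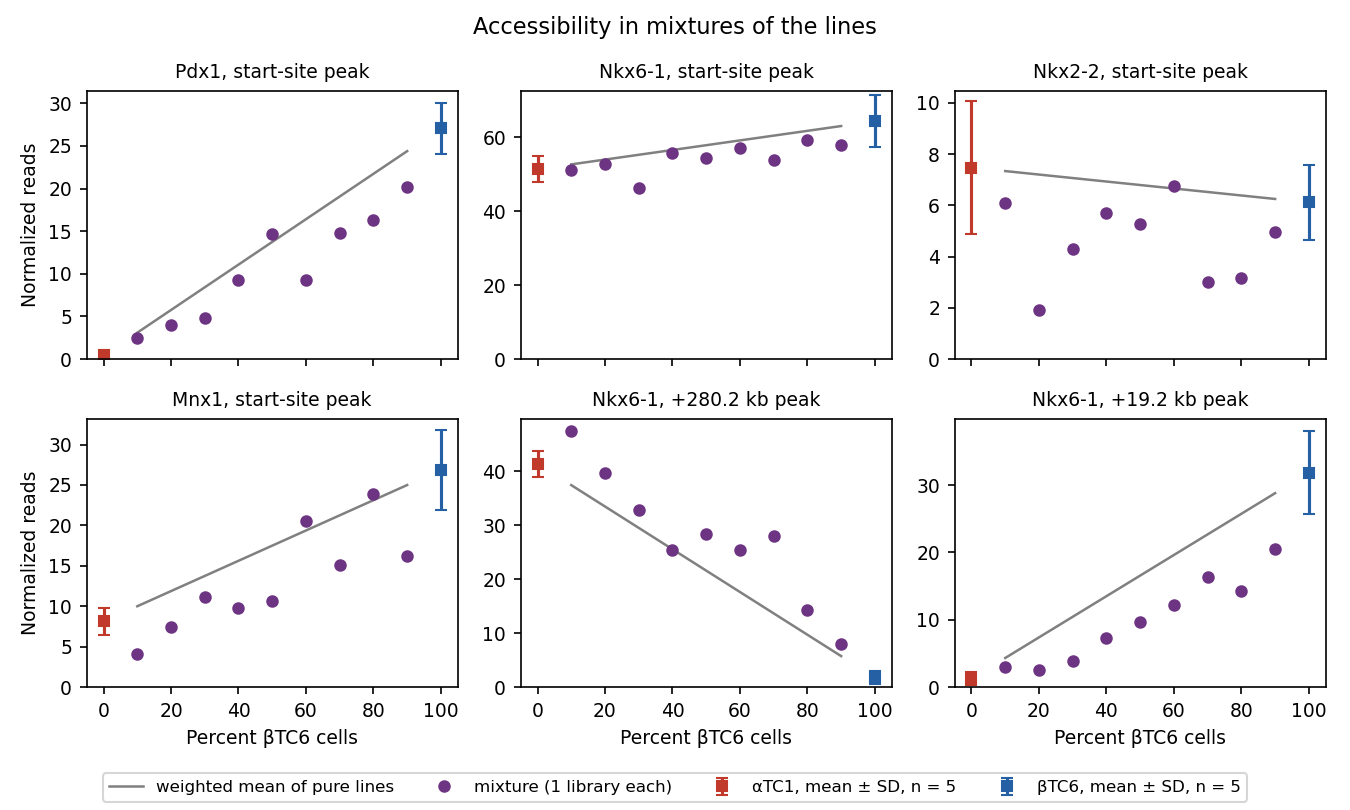
Normalized ATAC-seq reads (vertical axes, from 0, separate scales) against percent βTC6 cells in 9 mixtures (purple, 1 library each) for the 4 start-site peaks and 2 Nkx6-1 distal regions. Squares with whiskers are the pure lines (mean ± SD, n = 5) and the grey line is their weighted mean. All 9 points of the 19.2 kb region and of the Nkx6-1 start peak and 8 of 9 Nkx2-2 points lie below the line, and Nkx2-2 shows no trend.

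The motif letters occurred in the printed regions as follows. The Nkx6-1 region open in βTC6 held 1 TAATGA, found in the central 200 bases of 13.9% of all consensus peaks. The Pdx1 peak 1.8 kb upstream and the αTC1 region of Nkx6-1 held 1 E-box each, which 50.1% of all peaks hold. No match to any of the 5 motifs was present in the bases before the Pdx1 start or in the Mnx1 region. Over the 28 peaks, 15 held an E-box, 4 an Nkx2-type site (11.0% of all peaks), 2 TAATGA, 1 TAATTA (6.92% of all peaks) and 0 the forkhead site (6.32% of all peaks). TAATTA reads the same on both strands, and TAATTA and TAATGA overlap in their first bases. A match is a description of letters, not a site in use.

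Genes listed as activated with these factors in beta cells were mostly higher in βTC6, and their control by the factors was not tested. Of 15 listed genes 14 were tested, and 12 were called higher and 0 lower. Of the 12, 6 are the beta cell markers used above to check the lines, so they are no separate evidence. The median log2 fold change of the 14 tested genes was 8.85, or 7.41 with genes at 0 in αTC1 placed at their lower bound, beside 0.0094 over all 12195 genes tested. Ins1, an insulin gene, was at least 15139-fold higher, and Glp1r, the receptor of the incretin GLP-1, at least 706-fold. Ins2, the other insulin gene, rose from 0.34 to 30081 FPKM (log2 fold change 16.64, SE 0.40) and Mafa, an insulin gene activator, from 0.26 to 47.6 FPKM (7.52, SE 0.35). G6pc2, an islet glucose-6-phosphatase, rose from 33.7 to 791 FPKM (4.62, SE 0.11). Slc30a8, a zinc transporter of the secretory granule, had a log2 fold change of 0.74 (SE 0.12). Neurod1, an endocrine transcription factor, measured 92.1 and 82.0 FPKM (adjusted p = 0.272, edgeR).

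Genes of other islet cells, which these factors help to keep low in beta cells, were called in both directions. Of 10 listed, 8 were tested, 5 were called higher in αTC1 and 2 higher in βTC6. Gcg, the glucagon gene, fell from 12929 to 229 FPKM (log2 fold change -5.76, SE 0.23). Sst, the somatostatin gene of delta cells, and Ppy, the pancreatic polypeptide gene, were higher in βTC6. Sst was at least 1103-fold higher, and Ppy had a log2 fold change of 8.03 (SE 1.25). Hhex, a delta cell factor, and Ghrl, the ghrelin gene, averaged under 1 FPKM in both lines and were not tested.

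Among partner and cofactor genes, 22 of 22 were tested, 2 were called higher and 1 lower in βTC6, shares near the 10.2% and 4.08% of all genes tested, with a median log2 fold change of -0.011. The 3 called genes are given as values only. Pbx3 and Pknox2, TALE homeodomain proteins of the kind that bind DNA with Pdx1, measured 1.14 and 41.5 FPKM (log2 fold change 5.35, SE 0.13) and 0.077 and 3.78 FPKM (5.81, SE 0.24). Meis1, another TALE factor, measured 14.3 and 1.21 FPKM (-3.54, SE 0.18). Tle3, a Groucho corepressor, and Dnmt3a, a DNA methyltransferase, had log2 fold changes of 1.36 and 1.76, below the threshold.

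Related homeobox genes were mostly not expressed. Of 21 relatives, 18 averaged under 1 FPKM in both lines and 3 were tested. Cdx2, whose start lies 37.3 kb from that of Pdx1, had 0 FPKM in αTC1 and 5.64 FPKM in βTC6, at least 97.6-fold higher. Nkx2-5, the cardiac relative of Nkx2-2, went the other way, from 5.05 to 0.010 FPKM (log2 fold change -8.67, SE 0.46). Nkx6-2, the closest relative of Nkx6-1, measured 9.53 and 6.84 FPKM (log2 fold change -0.39, SE 0.18, adjusted p = 0.082, edgeR).

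Within 200 kb of the 4 starts the expression table held 18 other genes, of which 9 were tested and 2 were called, both higher in βTC6, where 10.2% of all genes tested were called. So small a count is given as a description. These were Cdx2 and Cds1, a phospholipid synthesis enzyme 99.9 kb from Nkx6-1, at 0.030 and 5.51 FPKM. The remaining neighbours of Pdx1 that were tested, Pan3, Polr1d and Lnx2, had log2 fold changes of -0.0019, 0.28 and 1.52. The 3 tested neighbours of Mnx1, Nom1, Lmbr1 and Ube3c, had -0.16, 0.24 and 0.84. Xrn2 near Nkx2-2 had -0.77. The Nkx2-2 antisense gene Nkx2-2as was at most 0.030 FPKM in any library.

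The genes whose levels lay closest to each factor over the 6 libraries, by Euclidean distance of log2(FPKM + 1), were Cdhr1 (0.35), Atp2a3 (0.53) and Rps4y2 (0.77) for Pdx1, the last of a ribosomal protein family with near-identical copies. For Nkx6-1 they were Stxbp2 (0.25), Tom1 (0.29) and Man2b1 (0.43). For Nkx2-2 they were Eif6 (0.24), Dpy30 (0.26) and Cdk16 (0.26), and for Mnx1 Nefh (0.19), Sp8 (0.27) and Abcc4 (0.35).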

How the data were processed

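The authors aligned ATAC-seq reads to mm9, called peaks with MACS2 and built consensus peaks with DiffBind. The deposited signal is TMM-normalized read counts per peak. Each value divided by its library's lowest gave whole reads (100% at a tolerance of 0.01), so 1 read cannot be told from none. The deposited RNA-seq expected counts and FPKM were made with RSEM, with 92 ERCC spike-in entries left out of tests.

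Peaks were compared with limma 3.58.1 on log2(value + 1) over 65053 peaks, without the mixtures. Genes with at least 1 FPKM in all replicates of either line were compared with edgeR 4.0.16 (quasi-likelihood, TMM, rounded counts). Both were adjusted by Benjamini-Hochberg, tested on simulated data, and called at FDR under 5% and absolute log2 fold change over 2. Mixture p-values were adjusted over all peaks, a choice made after seeing the data. Alternatives were other scalings, pseudocounts, filters, tools (DESeq2 1.42.0) and left-out libraries. Positions and start sites follow GENCODE vM1 (NCBIM37).

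The named peaks were, per factor, the one nearest the start, the one with the highest mean and the called peak changing most each way, and peaks beyond these were chosen after their values were seen. Named genes were the 3 of most similar level, the neighbours, and list members that were known targets or changed most. The factors and gene lists were chosen with earlier results of these data known. Columns of per-sample values that matched no sample here numbered 0. The result for 1 gene was left out and is not reported here.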

Additional observations from a re-analysis of the deposited data

Results flagged for a closer look

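In the 12 named or called peaks, each line's 5 libraries were examined for a value set apart from the others (gap to the nearest value over the group's range above 0.71). Of 24 groups 1 was flagged, and chance flags about 1 in 20. The Mnx1 peak 28.5 kb upstream of the start had 20.9 normalized reads in αTC1 replicate 5, whereas the next highest αTC1 library had 16.9. With that library left out the peak remained called.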

How the results depend on the processing

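The count of 3 factors called higher in βTC6 by RNA-seq was the same under DESeq2, upper-quartile and ERCC scaling, no FPKM filter, limma on log2(FPKM + 1) and each left-out library (3 to 3). It was 2 after subtracting chromosome medians, which removed Nkx6-1. For the 28 peaks, the 6 called higher in βTC6 became 3 less the chromosome median, 3 under quantile normalization and 2 with a pseudocount of 5, and the 2 called higher in αTC1 became 1 with a pseudocount of 5. They were 7 and 3 both by edgeR on recovered reads and with a pseudocount of 0.5. Counting all peaks within 100 kb of a start, an alternative added after seeing the data, gave 11 and 1 of 42 peaks, 21 of them annotated to other genes, beside 12.9% and 5.38% of all peaks. Left-out libraries gave 4 to 7 and 2 to 2, replicates 1 to 3 alone 6 and 2, and replicates 4 and 5 alone 5 and 3. The Pdx1 peak 5.9 kb upstream turned to -0.094 less the chromosome median, and the Nkx2-2 peak to 0.048 in replicates 4 and 5. Mixture tests passed for 9 of 11 peaks, 8 on the log2 scale and 2 without the mixtures at 10% and 90%.

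Over all peaks, 8409 were called higher in βTC6 and 3502 in αTC1, against 13794 and 5739 by edgeR on recovered reads, 1668 and 819 with a pseudocount of 5, and 5655 and 5126 under quantile normalization. Over all genes 1245 and 498 were called, against 2510 and 1020 without the FPKM filter and 702 and 277 by limma on log2(FPKM + 1). Same-numbered replicates of the lines correlated by at most 0.069, for ATAC-seq replicate 5, which was also the highest of all pairs. The main fits used no pairing, and whether same-numbered libraries share a batch was not tested. With the replicate block, 3 factors and 6 and 2 peaks were called, as without it.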
